A study of Mus musculus with 12 samples.

Results

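Primary mouse hepatocytes exposed to a vitamin D metabolite together with olanzapine were set against hepatocytes that received no vitamin D metabolite. The vitamin D libraries were olanzapine + calcifediol and olanzapine + calcitriol, and the libraries without were vehicle and olanzapine, so 4 of the 12 libraries of the series took part, 2 a side. Calcifediol is 25-hydroxyvitamin D3, the circulating form of vitamin D, and calcitriol is the hormone that binds the vitamin D receptor. The study asked whether these metabolites act on genes of cholesterol metabolism in cells exposed to olanzapine, an atypical antipsychotic that raises blood lipids.

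The hepatocytes came from livers of male C57BL6/J mice aged 6 to 8 weeks and were purified on a Percoll cushion. All 4 cultures were held in serum-free medium with 1 µM dexamethasone and an insulin supplement. The vitamin D cultures had 10 µM calcifediol or 0.1 µM calcitriol and 1 µM olanzapine, the olanzapine culture had 1 µM olanzapine, and the vehicle culture had DMSO. Calcifediol or calcitriol was given first, for 24 h, and olanzapine joined for a further 12 h of co-treatment. The vehicle culture had DMSO for 36 h. Olanzapine was therefore present in both vitamin D libraries and in only 1 of the 2 libraries without. There was 1 library a treatment and no replicate. Nothing in the labels said whether the 4 cultures came from 1 liver or several. The 2 vitamin D doses differed 100-fold, so calcifediol and calcitriol were not compared with each other.

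Poly(A) RNA was sequenced, and each hepatocyte library held between 18325297 and 19348338 counts. Of 17742 genes in the hepatocyte table, 10963 reached 1 TPM (the deposited FPKM rescaled to the same total in every library) in any of the 4 libraries and were tested. Map9, at 0.996 TPM, was the gene just outside this limit. Hepatocyte identity was clear in all libraries: the summed level of the 18 hepatocyte markers, in CPM (each count over its library's total), lay between 102800 and 110200, and Alb alone took 5.63% to 6.23% of all counts. Of the Kupffer cell markers, Clec4f had at most 1 count and Timd4 no count in any library. Lyz2, C1qb, C1qc and Cd5l passed the TPM limit, with at most 25 counts in any library. Cd68, a lysosomal protein counted among them, was far higher, with 5844 counts with calcifediol and 7813 with calcitriol, against 8198 in vehicle and 7258 in olanzapine. Endothelial markers were mixed. Stab1 had 102 and 171 counts with calcifediol and calcitriol, against 114 in vehicle and 141 in olanzapine, while Clec4g had at most 2 in any library. Muscle markers Myog, Ckm and Tnnt3 had 0 counts in all 4, while 2 of the 12 genes of that list passed the TPM limit: Acta1, with 33 counts with calcifediol and 69 with calcitriol, against 53 in vehicle and 75 in olanzapine, and Tnnt1, with 18 and 4 in the vitamin D libraries, against 18 in vehicle and 21 in olanzapine.

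Vitamin D is hydroxylated first in the liver, by CYP2R1 and CYP27A1, and then in the kidney by CYP27B1. Calcitriol binds the vitamin D receptor (VDR), which pairs with a retinoid X receptor and raises target genes such as Cyp24a1, the enzyme that breaks calcitriol down. Liver cells are known for low VDR. Interferon, the other system that the results turned on, acts through STAT2 and IRF9, among others, on interferon-stimulated response elements (ISREs) near the start of genes that act against viruses.

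The promoters of 5 of the genes that fell are shown, since 4 of them carry letters that resemble such an element. Each run is RefSeq sequence of GRCm38.p6, 5′ to 3′ on the strand of the gene, from 250 bases before to 50 bases after the start. Capitals mark GAAANNGAAA, an ISRE-like motif, searched on both strands, and overlapping matches merge into 1 capital run. The windows lie at chr5:114896684-114896983 on the plus strand (Oasl2), chr4:156200769-156201068 on the minus strand (Isg15), chr3:142559794-142560093 on the plus strand (Gbp3), chr7:104465144-104465443 on the minus strand (Trim30a) and chr15:77728822-77729121 on the plus strand (Apol9b).
Oasl2: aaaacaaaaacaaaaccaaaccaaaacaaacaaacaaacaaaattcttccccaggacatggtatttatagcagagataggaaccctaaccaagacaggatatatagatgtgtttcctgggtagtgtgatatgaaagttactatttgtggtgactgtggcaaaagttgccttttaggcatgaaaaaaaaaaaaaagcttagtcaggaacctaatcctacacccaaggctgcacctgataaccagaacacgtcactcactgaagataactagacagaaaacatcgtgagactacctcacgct
Isg15: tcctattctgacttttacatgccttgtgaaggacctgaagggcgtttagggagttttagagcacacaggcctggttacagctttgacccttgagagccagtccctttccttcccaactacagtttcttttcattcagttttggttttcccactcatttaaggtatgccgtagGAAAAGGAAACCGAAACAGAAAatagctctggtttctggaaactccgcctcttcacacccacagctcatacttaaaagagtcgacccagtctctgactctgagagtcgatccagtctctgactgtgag
Gbp3: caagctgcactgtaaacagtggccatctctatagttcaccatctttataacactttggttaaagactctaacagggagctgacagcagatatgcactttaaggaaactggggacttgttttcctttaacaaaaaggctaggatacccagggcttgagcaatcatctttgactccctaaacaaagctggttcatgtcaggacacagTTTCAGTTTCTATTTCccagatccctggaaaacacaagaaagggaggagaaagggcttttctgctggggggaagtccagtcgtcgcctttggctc
Trim30a: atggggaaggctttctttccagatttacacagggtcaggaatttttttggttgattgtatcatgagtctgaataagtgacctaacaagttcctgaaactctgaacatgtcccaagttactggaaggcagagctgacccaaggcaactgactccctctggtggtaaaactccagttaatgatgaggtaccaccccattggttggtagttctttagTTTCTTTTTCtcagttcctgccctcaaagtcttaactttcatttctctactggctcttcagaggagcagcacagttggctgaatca
Apol9b: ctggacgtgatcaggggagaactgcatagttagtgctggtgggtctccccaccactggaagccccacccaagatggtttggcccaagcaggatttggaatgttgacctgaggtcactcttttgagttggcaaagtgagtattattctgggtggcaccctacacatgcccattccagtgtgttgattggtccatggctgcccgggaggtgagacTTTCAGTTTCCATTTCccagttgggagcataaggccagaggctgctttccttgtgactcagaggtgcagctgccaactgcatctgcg

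Isg15 held 3 overlapping matches, beginning at -78, -72 and -66 bases from the start. Gbp3 and Apol9b held 2 each, and Trim30a held 1. Oasl2 held none in this window. Of the 18 genes that fell, 12 had a RefSeq promoter entry, and 6 of these 12 (Apol9b, Shisa5, Gbp3, Apol9a, Isg15 and Trim30a) carried the motif. The others, Ifi44, Irf7, Oasl1, Oasl2, Igfbp1 and Tat, did not. Of the called genes on the interferon response list, only Isg15 and Gbp3 were among the carriers. It was present in 3.51% of the 8868 tested genes with an entry and in 3.44% of all 32851 promoters of the table. A match describes the letters of the window and was not a test of binding.

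In the vitamin D libraries 26 of 10963 genes passed edgeR's quasi-likelihood test at a Benjamini-Hochberg false discovery rate (FDR) of 0.05. The 18 that fell included 8 genes of the interferon response list, among them Isg15, Oasl2, Ifi44, Gbp3, Usp18 and Irf7. The 8 that rose were collagens Col1a1, Col1a2 and Col3a1, the actin-binding genes Gsn and Flnc, and Lox, Dmpk and Gm14296. These were 0.073% of genes tested for a rise and 0.164% for a fall, and 567 genes had an unadjusted p under 0.05. With a fold of at least 2 as well, 4 genes rose (0.0365%) and 6 fell (0.0547%). The genes next to the threshold were Gm14296 (FDR 0.034) and Cachd1 (FDR 0.053) on the higher side, and on the lower side Rtp4 (FDR 0.055) was just outside.

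The call list rested on single libraries. Without the olanzapine library 6 genes were called, 2 higher and 4 lower, and of the 26 only Isg15 was among them. The 18 genes that fell all kept differences below 0 without it. Without the calcitriol library 96 genes were called, 41 higher and 55 lower, and these held 3 of the 8 and all 18. Without the calcifediol library 54 were called, 21 higher and 33 lower, and these held 6 of the 8 and 17 of the 18. Without the vehicle library, which leaves only cultures with olanzapine, 4 rose and 30 fell, and 3 of the 8 and 15 of the 18 were among them. Scaling to Rplp0 in place of total counts gave 9 higher and 11 lower. The calls also depended on the filter and the tool: with no TPM limit, over 15145 genes, edgeR called 0 genes (568 at an unadjusted p under 0.05), and DESeq2 called 10 of the 26, 1 higher and 9 lower. The spread in this fit came from libraries with different treatments on each side, and an exact permutation test of 2 against 2 cannot go below a two-sided p of 0.333. Fewer cells of a type and less RNA per cell cannot be told apart in bulk libraries.

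**Figure D1:**
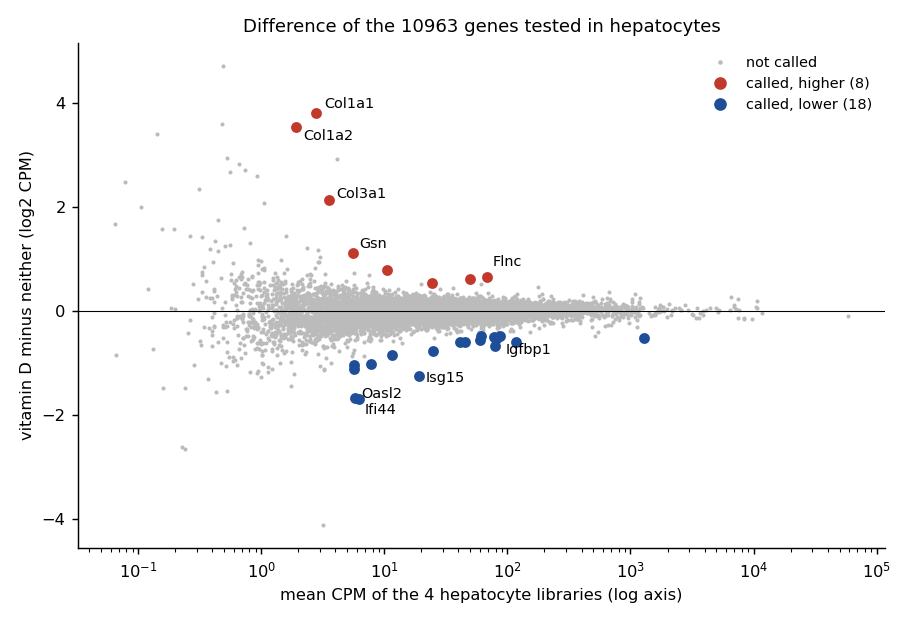
Each point is 1 of the 10963 genes tested, with its mean CPM over the 4 hepatocyte libraries on a log axis against the difference in mean log2 CPM, vitamin D libraries minus libraries without. Most genes lay near 0 (SD 0.23), the 18 that fell sat below the cloud with Ifi44 and Oasl2 lowest, and the collagens that rose were genes of low level.

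Antiviral effectors were among the genes that fell. Isg15, a ubiquitin-like protein that is joined to other proteins after interferon, had 12.0 CPM with calcifediol and 10.2 with calcitriol, against 20.3 in vehicle and 34.5 in olanzapine. Both vitamin D libraries lay below both others, and olanzapine was the highest. The nearest libraries of the 2 sides were 1.69-fold apart, the difference in mean log2 CPM was -1.26 ± 0.40 (SE, 2 libraries a side), and Isg15 had the lowest edgeR FDR, 0.000164.

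Oasl2, an oligoadenylate synthetase-like protein, had 55 counts with calcifediol and 48 with calcitriol, against 123 in vehicle and 205 in olanzapine. The sides were 2.27-fold apart at the nearest, the widest gap among the genes called lower, with a difference of -1.67 ± 0.40 on the log2 scale (edgeR FDR 0.00042). Its neighbour Oasl1, at chr5:114923143-114937911, had 37.8 and 33.2 CPM with calcifediol and calcitriol, against 47.4 in vehicle and 60.8 in olanzapine. Oasl1 fell by 0.60 ± 0.20 (edgeR FDR 0.011). Oasl1 restrains translation of Irf7 mRNA in mice.

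Ifi44, an interferon-induced protein of unsettled function, had 44 counts with calcifediol and 60 with calcitriol, against 104 in vehicle and 253 in olanzapine. It fell by 1.70 ± 0.69 on the log2 scale (edgeR FDR 0.0026), the largest difference among the genes called lower, and its spread between vehicle and olanzapine was wider than the gap between the sides. The same held for Isg15 (narrowly), Oasl1, Dhx58, Zbp1, Apol9b, Apol9a and Iigp1. It did not hold for Oasl2, Gbp3, Usp18, Irf7 and Trim30a. Gbp3, a guanylate-binding GTPase, had 66 and 69 counts with calcifediol and calcitriol, against 115 in vehicle and 175 in olanzapine (edgeR FDR 0.012). Usp18, the protease that removes Isg15 and dampens the interferon receptor, had 36.1 and 29.5 CPM with calcifediol and calcitriol, against 45.6 in vehicle and 53.5 in olanzapine (edgeR FDR 0.011). Gbp3 and Usp18 both kept the same order, with the vitamin D libraries lowest and olanzapine highest.

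Sensors and regulators fell as well. Dhx58, which encodes the RNA sensor LGP2, had 19.6 CPM with calcifediol and 16.7 with calcitriol, against 26.4 in vehicle and 36.7 in olanzapine (edgeR FDR 0.0035). Zbp1, a sensor of Z-form nucleic acid, had 147 and 161 counts with calcifediol and calcitriol, against 214 in vehicle and 336 in olanzapine (edgeR FDR 0.013). Irf7, the transcription factor that drives interferon production, had 61.8 and 70.3 CPM with calcifediol and calcitriol, against 86.9 in vehicle and 105.4 in olanzapine (edgeR FDR 0.012). None of these 3 genes overlapped between the sides.

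Trim30a fell with 108 and 88 counts in the calcifediol and calcitriol libraries, against 179 in vehicle and 207 in olanzapine. Iigp1, an immunity-related GTPase, had 1217 and 1251 counts with calcifediol and calcitriol, against 1481 in vehicle and 1914 in olanzapine. Apol9b and Apol9a, interferon-inducible apolipoprotein L genes at chr15:77729047-77736382 and chr15:77403789-77411080, fell as a pair. Apol9b had 66.0 and 55.7 CPM with calcifediol and calcitriol, against 83.9 in vehicle and 110.6 in olanzapine. Apol9a had 50.9 and 45.0 CPM with calcifediol and calcitriol, against 59.9 in vehicle and 82.8 in olanzapine. The Apol9, Trim30 and Gbp genes have near-identical copies among which the read assignment could split reads, so their single values are uncertain. Gm4070, listed in RefSeq with the synonym VLIG-1, had 72 and 69 counts with calcifediol and calcitriol, against 155 in vehicle and 126 in olanzapine.

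**Figure D2:**
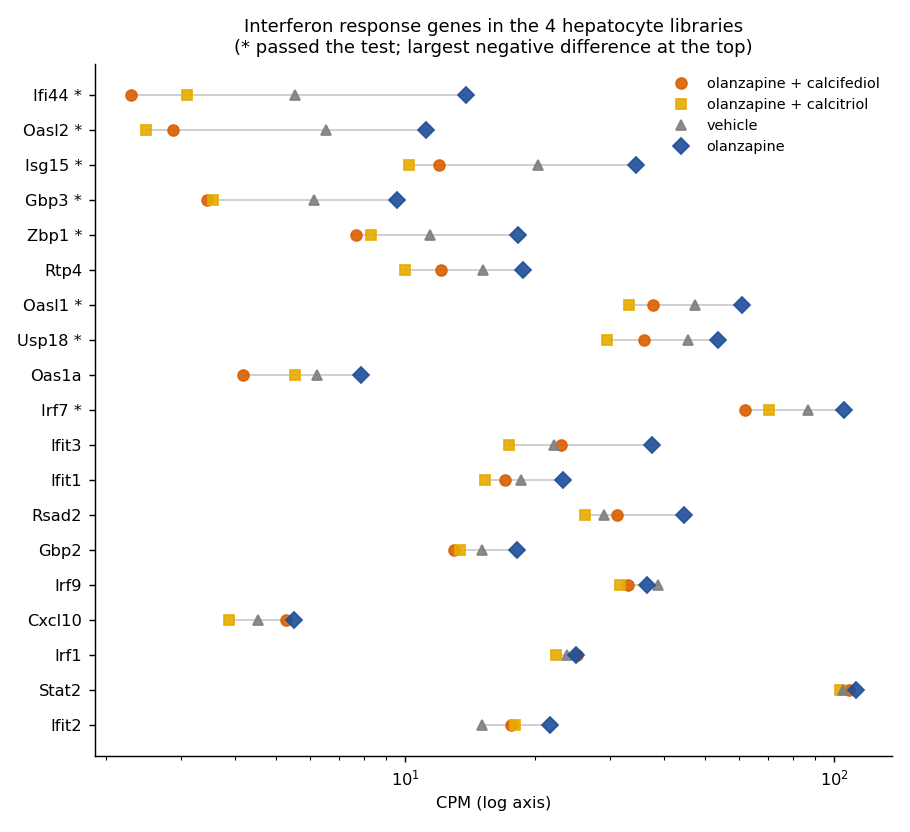
Each row is 1 of 19 of the 20 tested genes of the interferon response list and each symbol is the CPM of 1 hepatocyte library on a log axis, with the olanzapine + calcifediol and olanzapine + calcitriol libraries listed before vehicle and olanzapine. Stars mark the 8 genes that passed the test. In 13 rows both vitamin D symbols lie left of both others, and in 17 rows the olanzapine diamond is farthest right.

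Of the 21 genes of the interferon response list found in the table, 20 were tested, and Oas2, with at most 4 counts in any library, was not. Of the 20, 8 fell and none rose, against 0.164% of all genes tested. The median difference was -0.53, against -0.01 over all genes tested, and all 20 members were below 0. In 14 of 20 members both vitamin D libraries lay below both others, against 17.9% of all genes tested. Rtp4, at -0.62 ± 0.21 with edgeR FDR 0.055, missed the threshold. Stat2, Irf1 and Ifit2 had differences of -0.04, -0.04 and -0.02 on the log2 scale, within their spread. The list and its direction were known from earlier results of these data and are given as a description.

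The order of the libraries bore on this list. Summed over the 20 genes the level was 516.0 CPM with calcifediol and 496.8 with calcitriol, against 602.2 in vehicle and 763.0 in olanzapine. Olanzapine stood above vehicle in 19 of 20 members, with a median of 0.35 on the log2 scale. Without the olanzapine library the list's median difference was -0.32. Without the vehicle library, leaving olanzapine in every culture, the median was -0.69. Without the calcifediol or the calcitriol library it lay between these values. Calls are not compared here, since each of these fits leaves 1 library alone on its side.

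The other cell types held the same 20 genes at other levels and orders. In adipocytes the sums were 568.3 CPM with calcifediol and 515.4 with calcitriol, against 916.6 in vehicle and 526.9 in olanzapine. There vehicle was the highest library for all 20 members, olanzapine lay near the vitamin D libraries, all 20 differences were below 0 and the median was -0.41. In C2C12 cells, a mouse myoblast line grown to myotubes, the sums were 126.9 and 112.8 CPM with calcifediol and calcitriol, against 152.8 in vehicle and 157.9 in olanzapine, with 14 of 20 members below 0 and a median of -0.23. No member passed the interaction test of hepatocytes against the mean of the other cell types, in which 0.405% of 13323 genes passed as higher and 0.991% as lower. For Isg15 that difference was -1.14 on the log2 scale (edgeR FDR 0.38), and a p that misses the threshold does not show that the cell types respond alike.

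Igfbp1, Shisa5 and Tat, which are not on the interferon response list, fell too. Of these, Shisa5 alone carried the ISRE-like motif. Igfbp1, a secreted insulin-like growth factor binding protein that insulin represses, had 72.0 CPM with calcifediol and 71.9 with calcitriol, against 104.2 in vehicle and 97.2 in olanzapine. Libraries of 1 side were close to each other, and the difference was -0.48 ± 0.05 (edgeR FDR 0.012). Shisa5, a p53-induced protein of the endoplasmic reticulum, had the same even pattern, at 51.8 and 49.6 CPM with calcifediol and calcitriol, against 70.3 in vehicle and 70.8 in olanzapine (edgeR FDR 0.015). In both genes vehicle and olanzapine lay close together, and with 3 libraries neither passed without olanzapine (edgeR FDR 0.24 for Igfbp1 and 0.56 for Shisa5) or without vehicle (FDR 0.21 and 0.13). The differences hardly moved: without olanzapine they were -0.53 for Igfbp1 and -0.47 for Shisa5, and without vehicle -0.43 and -0.48.

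Tat, tyrosine aminotransferase and a classic glucocorticoid target, had 77.4 CPM with calcifediol and 109.0 with calcitriol, against 127.7 in vehicle and 152.3 in olanzapine (edgeR FDR 0.015). The calcifediol library was lowest and the sides did not overlap. In the list for gluconeogenesis and glucose handling 2 of 16 tested members fell (Igfbp1 and Tat), against 0.164% of all genes tested. In that list 5 members lay wholly lower in the vitamin D libraries and none wholly higher, against 17.9% and 14.4% of all genes tested. The median was -0.10. Pck1, the enzyme that commits carbon to gluconeogenesis, had 9 and 13 counts with calcifediol and calcitriol, against 18 in vehicle and 19 in olanzapine, and was under the TPM limit. G6pc, of the same list and also not tested, overlapped, at 13 and 5 counts with calcifediol and calcitriol, against 8 in vehicle and 21 in olanzapine. Of the 13 tested glucocorticoid targets Tat alone was called, against 0.164% of all genes tested called lower, and the median of that list was -0.01.

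Of the genes that rose, the 3 collagens were low and had most of their counts in the calcitriol library. Col1a1, a chain of type I collagen, had 17 counts with calcifediol and 191 with calcitriol, against 2 in vehicle and 6 in olanzapine (edgeR FDR 0.0035). Col1a2, its partner chain, had 0.730 CPM with calcifediol and 6.46 with calcitriol, against 0.426 in vehicle and 0.0546 in olanzapine, where 0.0546 CPM is 1 count (edgeR FDR 0.012). Col3a1, type III collagen, had 5 and 253 counts with calcifediol and calcitriol, against 6 in vehicle and 10 in olanzapine (edgeR FDR 0.022), so its sides overlapped and the calcifediol library was the lowest of the 4. Without the calcitriol library the Col3a1 difference was -0.63. Col1a1 and Col1a2 kept differences of 2.07 and 1.97 without that library and did not pass (edgeR FDR 0.31 and 0.56).

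Lox, the enzyme that crosslinks collagen and elastin, had 31.7 CPM with calcifediol and 26.1 with calcitriol, against 19.2 in vehicle and 20.4 in olanzapine (edgeR FDR 0.026). Flnc, filamin C, which crosslinks actin, had 89.3 and 77.1 CPM with calcifediol and calcitriol, against 60.9 in vehicle and 45.8 in olanzapine (edgeR FDR 0.0054). Dmpk, a protein kinase of muscle and heart, had 71.1 and 48.7 CPM with calcifediol and calcitriol, against 42.8 in vehicle and 34.3 in olanzapine (edgeR FDR 0.020). In these 3 genes both vitamin D libraries lay above both others and the calcifediol library was highest. All 3 passed without the calcitriol library, while without the calcifediol library Flnc passed (0.55, edgeR FDR 0.00098) and Lox (0.40, FDR 0.40) and Dmpk (0.34, FDR 0.48) did not. None of the 3 passed without the olanzapine library. Gsn, gelsolin, which severs actin filaments, had 5.94 and 9.30 CPM with calcifediol and calcitriol, against 3.46 in vehicle and 3.44 in olanzapine (edgeR FDR 0.013). Gm14296, which carries only a placeholder name, had 213 and 299 counts with calcifediol and calcitriol, against 167 in vehicle and 119 in olanzapine.

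Some transcripts of fat cells moved with part of this rise. Adipoq, which encodes adiponectin and is made by fat cells, had 5 counts with calcifediol and 33 with calcitriol, against 0 in vehicle and 0 in olanzapine. The adipocyte olanzapine + calcitriol library of the series held 31365 counts of Adipoq, so the hepatocyte calcitriol library held 0.105% of that number. At the same share the adipocyte library would have given 161 counts of Col1a1, where 191 were found, 161 of Col3a1, where 253 were found, and 69.9 of Gsn, where 180 were found. Retn, the adipocyte hormone resistin, would have had 31.2 counts and had 33. Other markers lay further off: Plin1 would have had 26.6 and had 39, and Cfd would have had 16.4 and had 30. Cidec, Fabp4 and Pparg had another order, with calcifediol highest. Cidec had 102 and 85 counts with calcifediol and calcitriol, against 65 in vehicle and 68 in olanzapine. At the share Cidec would have had 24.0 counts with calcitriol. Fabp4 would have had 98.5 and had 1162, and Pparg would have had 7.37 and had 236. For Lox the share came to 4.38 counts of 504, for Flnc to 1.11 of 1492 and for Dmpk to 3.35 of 942. Among the 8 genes that rose, 4 (Col1a1, Col1a2, Col3a1 and Gsn) had an adipocyte count over 10 times that of the hepatocyte calcitriol library. The share of all genes tested above the same limit was not counted, so this number is a description.

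**Figure D3:**
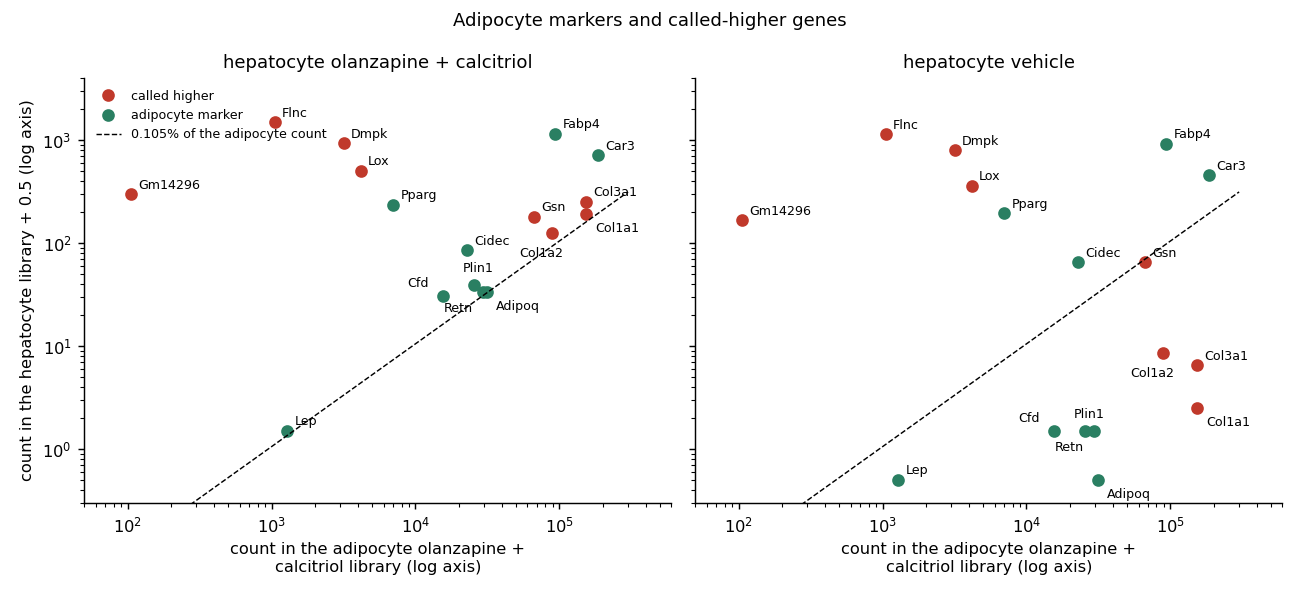
Points are adipocyte markers (green) and the 8 genes that rose (red), with the count in the adipocyte olanzapine + calcitriol library against the count plus 0.5 in the hepatocyte olanzapine + calcitriol library (left) and the hepatocyte vehicle library (right), both axes logarithmic. The dashed line is 0.105% of the adipocyte count, a share set by Adipoq in the left panel, so Adipoq lies near it there by definition. Adipoq, Retn, Plin1 and the 3 collagens lie near or above the line on the left and far below it on the right, while Lox, Flnc and Dmpk lie far above it in both. The markers Cidec, Fabp4, Pparg and Car3 also lie above it in both.

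All 9 adipocyte markers summed to 2143 counts with calcifediol and 2337 with calcitriol, against 1647 in vehicle and 1633 in olanzapine, most of them Fabp4 and Car3. The 13 fibroblast and stellate cell markers summed to 129 and 721 counts with calcifediol and calcitriol, against 120 in vehicle and 122 in olanzapine, with most of the calcitriol excess in the collagens. Postn, periostin, also had 44 counts with calcitriol and 4 in each of the other libraries. Of the stellate cell markers, Acta2 had 2 counts with calcifediol and 1 with calcitriol, against 6 in vehicle and 7 in olanzapine, Des had 0 in both vitamin D libraries, against 2 in vehicle and 3 in olanzapine, and Lrat had at most 2 in any library. Reln had 56 and 49 counts with calcifediol and calcitriol, against 64 in vehicle and 55 in olanzapine. With the adipocyte share subtracted from the calcitriol library, an alternative chosen after seeing the data, 5 genes rose and 18 fell, and 4 of the 8 and all 18 were among them. Col1a1, Col1a2, Col3a1 and Gsn were no longer called (edgeR FDR 0.23, 0.37, 0.23 and 0.26) at remaining differences of 2.46, 2.55, 1.40 and 0.75 on the log2 scale, while Lox, Flnc, Dmpk and Gm14296 were. The share was set by Adipoq in that same calcitriol library and taken from that library alone. Genes of high adipocyte count were therefore bound to lose counts, so the lost calls were no test of their source. Whether fat cell RNA entered the culture or the library was not tested.

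The vitamin D system itself held no called gene in hepatocytes. Of 30 genes listed, 20 were tested, 1 lay wholly higher and 4 wholly lower in the vitamin D libraries, against 14.4% and 17.9% of all genes tested, and the median was -0.03. Vdr, the receptor, had 2 counts with calcifediol and 1 with calcitriol, against 1 in vehicle and 2 in olanzapine, where C2C12 cells had 8411 and 9240 with calcifediol and calcitriol, against 2034 in vehicle and 1939 in olanzapine. Cyp24a1 had 4 counts with calcifediol and 4 with calcitriol, against 0 in vehicle and 0 in olanzapine, at least 2.57-fold higher with 3 counts over the side without as the floor. It was under the TPM limit, and tested without that limit its edgeR FDR was 0.93. The adipocyte libraries held 661 and 579 counts of Cyp24a1 with calcifediol and calcitriol, against 2 in vehicle and 0 in olanzapine, and at the Adipoq share the hepatocyte calcitriol library would have held 0.609 counts.

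S100g, the calcium binding protein calbindin-D9k and a VDR target of the gut, had 26 counts with calcifediol and 22 with calcitriol, against 10 in vehicle and 13 in olanzapine. The sides were 1.58-fold apart, the difference was 0.98 ± 0.24, and it did not pass the test (edgeR FDR 0.96). C2C12 cells had 18 and 32 counts of S100g with calcifediol and calcitriol, against 0 in vehicle and 0 in olanzapine, and the interaction test did not separate them (edgeR FDR 0.13). The 25-hydroxylases Cyp2r1 and Cyp27a1 differed by -0.09 and -0.02 on the log2 scale. Gc, the vitamin D binding protein of plasma, had 6842 and 7280 CPM with calcifediol and calcitriol, against 7858 in vehicle and 7667 in olanzapine, a difference of -0.14 ± 0.05 that did not pass (edgeR FDR above 0.99). The retinoid X receptor genes Rxra, Rxrb and Rxrg had differences between -0.10 and 0.06.

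Cholesterol genes, the question of the study, showed no call. In the list of cholesterol synthesis enzymes 18 of 18 were tested, 1 lay wholly higher (14.4% of all genes tested) and 3 wholly lower (17.9%), and the median was -0.04 within a range of -0.12 to 0.12. Dhcr7, which makes cholesterol from its last precursor, had 141.5 and 148.2 CPM with calcifediol and calcitriol, against 153.0 in vehicle and 158.9 in olanzapine. Insig2, which holds SCAP, the sterol sensor of the SREBP pathway, in the endoplasmic reticulum, had 143.9 and 125.4 CPM with calcifediol and calcitriol, against 143.2 in vehicle and 138.2 in olanzapine, a difference of -0.07 ± 0.10. Its sign turned without the calcitriol library, to 0.03. Among 13 tested genes of SREBP-2 control and cholesterol uptake the median was -0.07 and the largest difference was that of Insig1, at -0.20 ± 0.11.

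**Figure D4:**
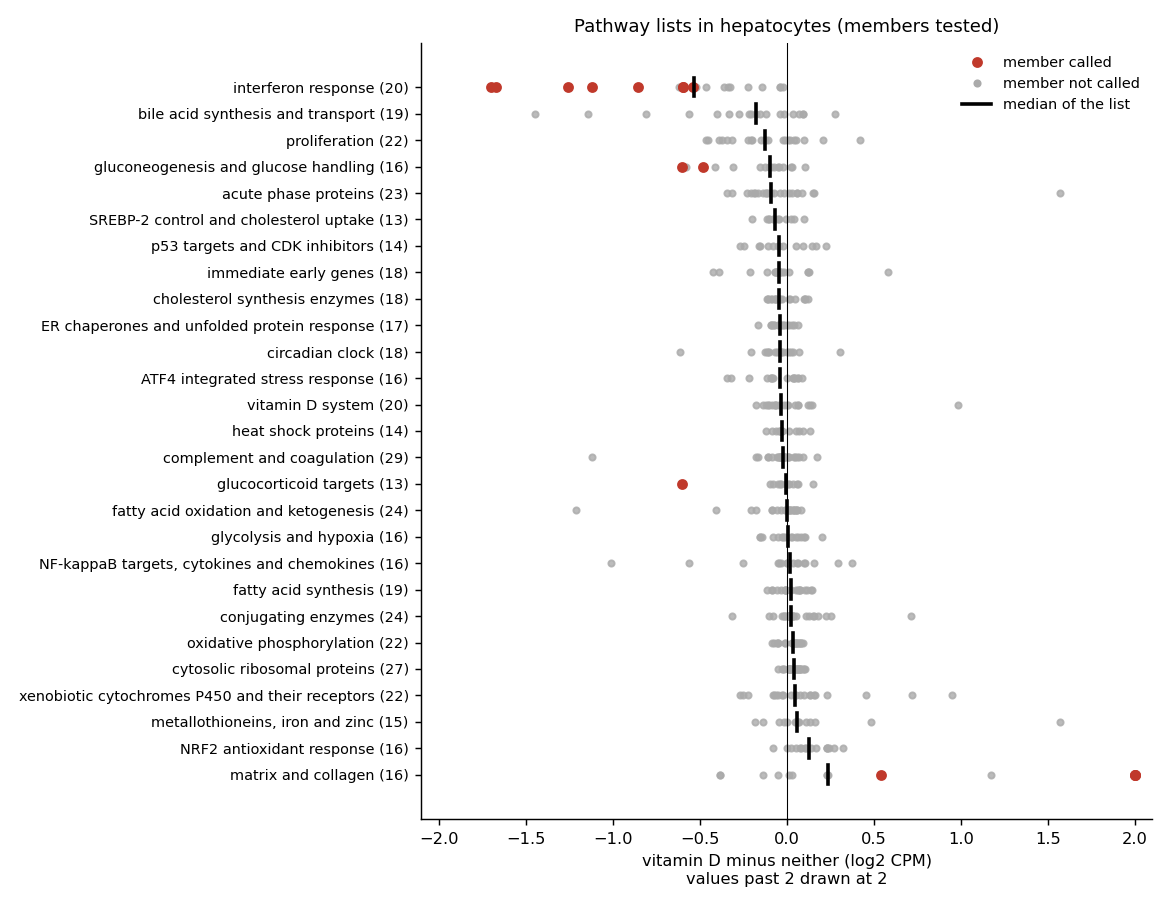
Each row is a pathway list with its number of tested members, and each dot is the difference of 1 member in mean log2 CPM, vitamin D libraries minus libraries without, with called members in red and the list's median as a bar. The interferon response list is at the top with a median of -0.53, and the medians of the 26 others lie between -0.18 and 0.24. The lists were chosen with earlier results of these data known, so their order is a description.

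Bile acid genes were the next lowest list. Of 19 tested members none was called, 8 lay wholly lower (17.9% of all genes tested) and 1 wholly higher (14.4%), and the median was -0.18. Cyp8b1, the sterol hydroxylase that sets the share of cholic acid, had 24 and 12 counts with calcifediol and calcitriol, against 37 in vehicle and 56 in olanzapine (edgeR FDR 0.26). Akr1d1, a steroid reductase of the same pathway, had 34 and 42 counts with calcifediol and calcitriol, against 63 in vehicle and 104 in olanzapine (edgeR FDR 0.11). Slco1b2, an uptake transporter of bile acids and drugs, had 73 and 81 counts with calcifediol and calcitriol, against 119 in vehicle and 142 in olanzapine (edgeR FDR 0.13). Baat, which joins bile acids to amino acids, had 66.9 and 77.8 CPM with calcifediol and calcitriol, against 90.2 in vehicle and 101.1 in olanzapine (edgeR FDR 0.10). Cyp7a1, the rate-limiting enzyme, overlapped, at 63 and 116 counts with calcifediol and calcitriol, against 87 in vehicle and 171 in olanzapine.

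NRF2 targets, which answer oxidative stress, went the other way by small amounts. Of 16 tested members none was called, 11 lay wholly higher in the vitamin D libraries, against 14.4% of all genes tested, none lay wholly lower, and the median was 0.12. Osgin1, an oxidative stress induced growth inhibitor, had 573.7 and 515.0 CPM with calcifediol and calcitriol, against 485.9 in vehicle and 417.2 in olanzapine. Pgd, a dehydrogenase of the pentose phosphate pathway, had 749.9 and 639.2 CPM with calcifediol and calcitriol, against 602.4 in vehicle and 567.9 in olanzapine. In both, the olanzapine library was lowest and the calcifediol library highest, and the nearest libraries were 1.06-fold apart. Nqo1, a quinone reductase, had 295 and 241 counts with calcifediol and calcitriol, against 234 in vehicle and 205 in olanzapine. Hmox1, heme oxygenase, overlapped, at 4206 and 3242 counts with calcifediol and calcitriol, against 3730 in vehicle and 2689 in olanzapine.

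Single members of other lists had wide gaps without passing. Fgf21, a fasting hormone of the liver, had 21 and 21 counts with calcifediol and calcitriol, against 41 in vehicle and 55 in olanzapine, with the sides 1.97-fold apart (edgeR FDR 0.30). Cyp1a1, the main target of the aryl hydrocarbon receptor, had 70 and 77 counts with calcifediol and calcitriol, against 38 in vehicle and 35 in olanzapine, 1.79-fold apart (edgeR FDR 0.30). Cd5l, a macrophage protein, had 20 and 25 counts with calcifediol and calcitriol, against 8 in vehicle and 9 in olanzapine (edgeR FDR 0.79). Crp, C-reactive protein, had 93.3 and 94.9 CPM with calcifediol and calcitriol, against 111.3 in vehicle and 127.9 in olanzapine (edgeR FDR 0.21). Fatty acid synthesis, fatty acid oxidation, oxidative phosphorylation and ribosomal protein lists had no called member, and their medians lay between 0.00 and 0.04.

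The other 2 ways to pair the 4 libraries gave a description of how the libraries vary. They set treatments against each other too, so they do not show variation between cultures alone. Any vitamin D difference falls within their sides and widens the spread of the fit, so their numbers of calls are not a like comparison. Both gave 0 calls by edgeR, with 569 genes at an unadjusted p under 0.05 for calcifediol and vehicle against calcitriol and olanzapine, and 497 for calcifediol and olanzapine against calcitriol and vehicle. Genes with the nearest libraries of the sides at least 1.5-fold apart numbered 44 in the vitamin D pairing, 19 higher (0.173%) and 25 lower (0.228%), against 29 and 32 in the other pairings. Just inside and outside this limit were Gapdh-ps15 at 1.52 and 1810062G17Rik at 1.48 among higher genes, and Slco1b2 at 1.51 and Rgs16 at 1.48 among lower genes. The SD of the difference over genes was 0.23 for the vitamin D pairing, against 0.21 and 0.22 for the others. The interferon list was chosen with its direction in the vitamin D pairing known, so its values over the pairings are a description. The interferon list had medians of -0.18 and 0.27 in the other pairings, where 1 of its 20 members lay wholly lower and 0 wholly higher (calcifediol and vehicle first, with 1957 lower and 1749 higher of the 10963 genes), and 0 wholly lower and 5 wholly higher (calcifediol and olanzapine first, with 2023 lower and 1698 higher).

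**Figure D5:**
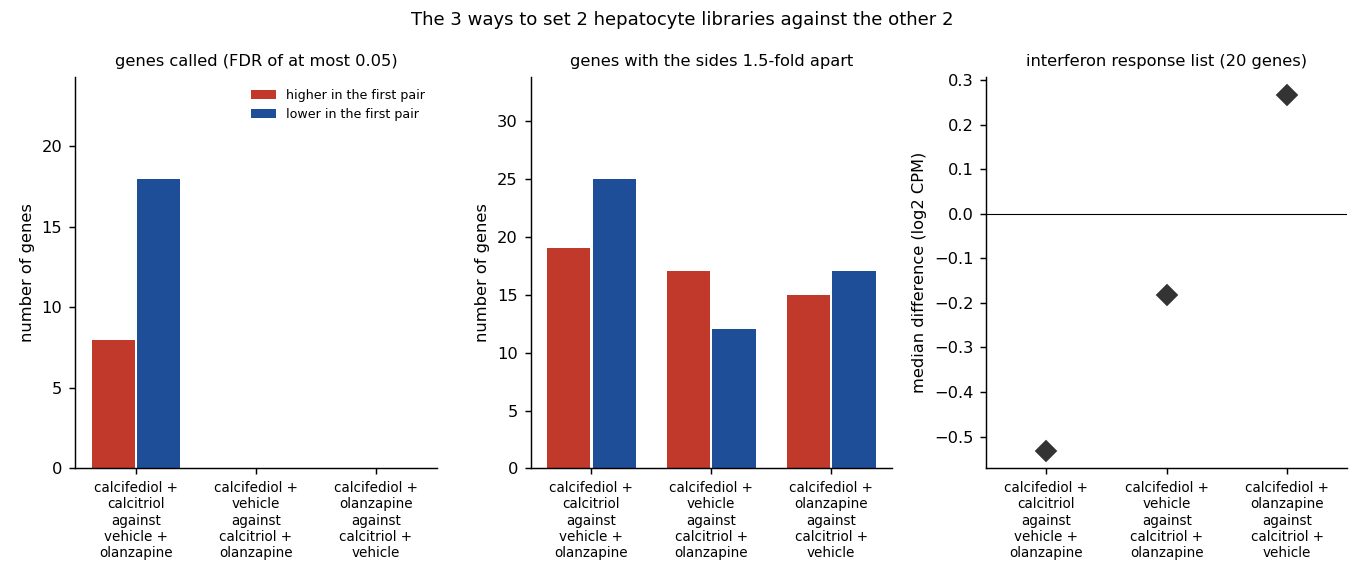
Bars give the number of genes called (left) and of genes with the sides at least 1.5-fold apart (middle), higher and lower in the first pair named, for the 3 ways to set 2 hepatocyte libraries against the other 2, with the vitamin D pairing first. Calls occurred in that pairing alone, while 1.5-fold separations numbered 44, 29 and 32, and the interferon medians (right) were -0.53, -0.18 and 0.27. In the other pairings any vitamin D difference falls within the sides and widens the spread of the fit. The interferon list was chosen with earlier results of these data known.

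The vitamin D difference of hepatocytes differed from that of the other cell types, by the interaction test, for 186 of 13323 genes. Of the genes called in hepatocytes, Lox was the only one among them, at 0.65 on the log2 scale (edgeR FDR 0.039). Lox had 3897 and 4161 counts in the adipocyte vitamin D libraries, against 4714 in vehicle and 5235 in olanzapine, and in C2C12 cells 16949 and 18779 counts, against 17282 in vehicle and 16329 in olanzapine. Igfbp1 and Tat were not in that fit, which took genes found in all 3 tables.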

How the data were processed

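The authors cleaned DNBseq reads of poly(A) RNA by SOAPnuke, aligned the reads on build GRCm38.p6 by HISAT (version 2.0.4) and Bowtie (version 2.2.5), and ran RSEM 1.2.8 for gene expression. Expected counts were deposited per gene and library beside FPKM values, both made by the authors. Between 5.35% and 6.98% of the counts of a library were not whole. Counts were rounded here, FPKM was rescaled to TPM, and 12 deposited TPM columns were not used. Tables of the 3 cell types were tested within cell type, or with cell type as a term in the interaction fit. Log2 CPM had 0.5 counts added, library sizes were total counts, and genes needed 1 TPM in any hepatocyte library. Tests were edgeR 4.0.16 quasi-likelihood fits in R 4.3.3 (2 residual degrees of freedom from 4 libraries, 6 from 12), with DESeq2 1.42.0 and limma-voom 3.58.1 as alternatives. The study's own test compares single libraries and was replaced. P-values measure only the spread between these libraries, which differ in treatment and may share a source. Tested on simulated counts for 10963 genes, 80% of genes changed 1.5-fold and 100% of genes changed 3-fold were called, with 5 unchanged genes called. For the interaction fit over 13323 genes the shares were 72% and 96%, with 10 unchanged genes called. These shares hold for the simulated counts alone. In the data, genes of few counts with large differences were not called, such as Cyp8b1 (-1.45 on the log2 scale, edgeR FDR 0.26) and Retn (3.59, edgeR FDR 0.19). A gene without a call was therefore not shown to be unchanged. Gene numbers matched RefSeq for 17629 of 17742 genes, and 23 symbols turned into dates were restored. Named genes were the vitamin D system, up to 12 genes a direction that passed, by the fold between the nearest libraries, filled from separated genes with at least 5 TPM, and up to 4 members of each list with the widest gap. Clone names were left out of that rule. Irf7, Iigp1, Apol9a, Gm4070, Gm14296 and genes named as counterparts or as neighbours of a threshold were chosen after their values were seen. Members and lists were chosen with earlier results of these data known. Floors cover counting error only. Values of some genes are not reported here.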

Additional observations from a re-analysis of the deposited data

Results flagged for a closer look

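For 9 named genes the vitamin D difference of hepatocytes, minus the mean of the differences in adipocytes and C2C12 cells, passed edgeR's interaction test, and causes were not tested. Cxcl12, a chemokine, had 76 and 78 counts in the hepatocyte vitamin D libraries, against 93 in vehicle and 130 in olanzapine, and in C2C12 cells 6979 and 4824, against 915 in vehicle and 899 in olanzapine, an interaction of -2.10 on the log2 scale. For Spp1, osteopontin and a VDR target, the interaction was -0.88, with 673 and 558 counts in the hepatocyte vitamin D libraries, against 648 in vehicle and 634 in olanzapine, and 30970 and 28362 in the C2C12 ones, against 14351 in vehicle and 13595 in olanzapine. Npc1, a cholesterol transporter of the lysosome, had an interaction of -0.78, with 1899 and 2388 counts in the C2C12 vitamin D libraries, against 951 in vehicle and 936 in olanzapine. The interaction was -0.59 for Trp53inp1, a p53 target with 2754 and 3029 counts in the hepatocyte vitamin D libraries, against 3362 in vehicle and 3348 in olanzapine. Lox had an interaction of 0.65 and Socs2, a brake on cytokine signalling, one of 0.94, with 104 and 95 counts of Socs2 in the hepatocyte vitamin D libraries, against 78 in vehicle and 70 in olanzapine, and 55 and 51 in the adipocyte ones, against 92 in vehicle and 94 in olanzapine. Fabp4 (-4.07), Crp (-5.24) and Orm2 (-4.05) passed on counts in another cell type that were at 0 in vehicle and olanzapine: Fabp4 had 86 and 40 counts in the C2C12 vitamin D libraries, against 0 in vehicle and 0 in olanzapine, Orm2 had 33 and 24 there, against 0 in both, and Crp had at most 7 counts in any adipocyte or C2C12 library.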

How the results depend on the processing

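The calls depended on the test and the filter. DESeq2 gave 10 calls, 1 higher and 9 lower (4 in the interferon response list), and all 10 were among the 26. Limma-voom gave 3 higher and 19 lower. A TPM of at least 10 gave 9 calls, 1 higher and 8 lower (4 in the interferon list). With no filter, over 15145 genes, edgeR gave 0 calls, 0 higher, 0 lower and 0 in the interferon list, with 568 genes at an unadjusted p under 0.05. Scaling to Rplp0 gave 11 lower, and subtracting the adipocyte share gave 5 higher. TMM and median-of-ratios factors moved no count by over 1.5 times. Leaving out 1 library at a time gave 6 to 96 calls, 2 to 41 higher and 4 to 55 lower, with 1 to 12 interferon genes called and an interferon median of -0.69 to -0.32. Col3a1 then ranged from -0.63 to 4.88 and Insig2 from -0.17 to 0.032. The causes were not tested.

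Genes at least 1.5-fold apart numbered 21 with a pseudocount of 5 (6 higher, 15 lower), 497 with no filter (243 and 254) and 2 at a TPM of at least 10 (0 and 2). A limit of 2-fold gave 9 (7 and 2) and a limit of 25% gave 143 (45 and 98). Without 1 library there were 148 to 169, with 59 to 64 higher and 84 to 109 lower, since fewer libraries had to stay apart. The interaction test gave 186 genes and 182 with TMM factors. Of 27 list medians 17 changed sign in some setting, and that of the interferon response list in none. No paired analysis was possible because each treatment had 1 library and the labels carried no replicate numbers. A library left alone on its side was assumed to vary like the rest. Depth limits genes of a few counts, such as Cyp24a1 and Vdr, where 3 counts are 0.155 to 0.164 CPM.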
